A study of Mus musculus with 13 samples.

Results

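The regions described here are stretches of the mouse autosomes that were called non-PAD in embryonic stem cells (ESCs) and PAD in both astrocytes (ACs) and thymus, whatever their call in neural precursor cells (NPCs). A PAD is a pericentromere-associated domain, a stretch of a chromosome arm with frequent contacts to the satellite repeats next to the centromeres. The regions were chosen by the ESC, AC and thymus calls themselves, so these 3 calls describe them and are not findings about them, while the NPC call, the genes and the sequence were not used in the choice. Of 374542 autosomal fragment ends, 24341 (6.5%) met the rule. Merging consecutive ends, with borders midway to the next other end, gave 698 regions that covered 139 Mb. This was 5.74% of the autosomal sequence with calls and 12.2% of the autosomal sequence that was non-PAD in ESCs. In the NPC calls, 504 stretches with 81.2 Mb of these regions were PAD and 351 stretches with 57.3 Mb were non-PAD, and both are described apart below. The term AC-thymus regions is used for the 698 regions.

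The study mapped such contacts by sat4C, a chromosome conformation capture method in which the major satellite repeat serves as the viewpoint and ligated fragments are sequenced. Thymus was taken from 3 C57BL/6 males as adults (2 sets of reads per mouse), and cells of the IB10 line (129/Ola) were used as ESCs (3 replicates), as NPCs derived from them (2 replicates) and as ACs derived in turn from the NPCs (2 replicates), with no treatment in any group. Chromatin of all groups was cut with ApoI and MfeI and, after the first ligation, with NlaIII. The calls are 1 consensus per cell type in a population of cells, so the values below have no replicate error, no test was made and the depth behind each call is unknown. Thymus reads came from an Illumina GAII and a HiSeq instrument, those of the other 3 cell types from a HiSeq alone. Strain, tissue origin, culture and sequencer thus differ together between thymus and the other 3 cell types, so the part of each cannot be told apart. The 3 cultured cell types descend from 1 line, and since no expression was measured the purity of NPCs and ACs was not checked.

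Pericentromeric satellite repeats of different chromosomes gather in the nucleus in chromocenters, compact bodies of constitutive heterochromatin. Gene-poor, AT-rich parts of chromosome arms are known to lie near such heterochromatin or the nuclear lamina more often than gene-rich parts. These contacts are known to differ between cell types, and genes of other lineages, such as receptor gene clusters of sensory neurons, are often found in such compartments.

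Over the 374542 autosomal ends, NPCs and thymus were the pair of cell types with the least agreement. ACs and thymus had the same call at 75.9% of ends and ESCs and ACs at 78.4%. The share was 68.3% for ESCs and NPCs, 68.0% for ESCs and thymus, 66.6% for NPCs and ACs and 52.9% for NPCs and thymus. The phi coefficient, a correlation of 2 yes-or-no calls, was 0.52 for ACs and thymus and 0.57 for ESCs and ACs. It was between 0.33 and 0.36 for NPCs with the other cultured cells, 0.36 for ESCs and thymus, and 0.04 for NPCs and thymus. NPCs were PAD at 70.3% of all ends and at 52.3% of the ends that were non-PAD in ESCs, which are the backgrounds for the NPC shares given below. Whether the NPC column holds the NPC calls as intended was not tested, and every NPC value given here rests on that column as deposited.

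A call belongs to a fragment end, which starts at a restriction site, and 3 borders are shown with the first bases of the ends on both sides, 1 for each call that can change at a border. They were taken in order of region size among the 10 largest regions. The sequences are of the NCBIM37 reference (mm9), plus strand, 60 bases from the first base of the site, with the site in capitals (CAATTG for MfeI, CATG for NlaIII). At the left border of chr15:17449798-19202800 the ESC call alone changed, from PAD to non-PAD, between ends that lay 8109 bp apart at 17445744 and 17453853.
chr15, last end outside: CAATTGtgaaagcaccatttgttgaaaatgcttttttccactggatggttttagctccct
chr15, first end inside: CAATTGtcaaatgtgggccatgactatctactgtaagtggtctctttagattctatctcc
At the left border of chr12:115586116-116790629 the AC call alone changed, from non-PAD to PAD, over 10353 bp between the ends at 115580940 and 115591293.
chr12, last end outside: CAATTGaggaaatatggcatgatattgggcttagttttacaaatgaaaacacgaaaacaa
chr12, first end inside: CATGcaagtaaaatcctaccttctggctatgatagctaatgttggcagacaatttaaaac
At the left border of chr11:55910599-56797253 the thymus call alone changed, from non-PAD to PAD, and the ends at 55910560 and 55910638 lay only 78 bp apart.
chr11, last end outside: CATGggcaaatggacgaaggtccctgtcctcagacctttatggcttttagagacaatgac
chr11, first end inside: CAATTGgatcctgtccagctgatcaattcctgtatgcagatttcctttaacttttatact
At all 3 borders the NPC call was non-PAD on both sides. The position of a border between 2 ends was thus open over 78 to 10353 bp in these examples, and the median distance between the ends on both sides of a border was 3102 bp.

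The AC-thymus regions were mostly short compared with the domains around them. Their median size was 128 kb (lower quartile 45.5 kb, upper quartile 264 kb), and they ranged from 0.333 kb to 1753 kb. Of the 698 regions, 29 consisted of a single fragment end and 45 were below 10 kb. The 67 regions over 500 kb held 35.6% of the sequence, and 5 were over 1 Mb. The regions lay near each other along the arms, with a median gap of 277 kb to the nearest other region and 536 of 698 within 1 Mb of one. The median region held 22 ends, and density varied from 148 to 225 ends per Mb between the quartiles.

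Each region is all or part of an ESC non-PAD, an AC PAD and a thymus PAD, and its borders show which of these ended there. Of 1396 borders, the ESC call alone changed at 794 (56.9%), the AC call alone at 421 (30.2%) and the thymus call alone at 177 (12.7%). Both neighbours were PAD in ESCs for 210 regions (49.99 Mb, median 165 kb), 374 regions had an ESC PAD on 1 side (66.1 Mb, median 116 kb) and 114 regions (22.4 Mb, median 121 kb) had none. Of the 1239 autosomal ESC non-PADs, 212 were AC-thymus regions over their whole length. Their share was 37.5% of non-PADs under 50 kb, 22.2% of those of 200 to 500 kb and 0.857% of those of 1 Mb or more (3 of 350). To count, a non-PAD must lie wholly within a PAD of ACs and a PAD of thymus, which is harder for a longer one. The smaller share among larger non-PADs thus follows from the rule and is not a finding. In the other direction, 59 of 967 AC PADs (median 94.5 kb) and 23 of 729 thymus PADs (median 114 kb) consisted of an AC-thymus region alone.

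The PADs of ACs and thymus that held such regions often spanned more than 1 ESC PAD. At least 1 region lay in 404 AC PADs and in 315 thymus PADs, and the regions covered a median of 22.2% and 16.5% of them. Of the 404 AC PADs, 163 overlapped 2 or more ESC PADs, 163 overlapped 1 and 78 overlapped none. Of the 315 thymus PADs, 173 overlapped 2 or more, 101 overlapped 1 and 41 overlapped none, with up to 8 ESC PADs in 1 PAD of either cell type. These counts follow in part from the rule, since a region with ESC PADs on both sides joins them. The PADs that held a region were also larger than all PADs, with medians of 1057 against 518 kb in ACs and 1740 against 723 kb in thymus. The ESC PADs in all AC and thymus PADs were not counted, so no background stands beside these counts.

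The regions were spread unevenly over the chromosomes, as the plot of their share by chromosome shows. They took 15.7% of Chromosome 16, 9.11% of Chromosome 10, 8.004% of Chromosome 1 and 7.70% of Chromosome 6, against 1.79% of Chromosome 7 and 2.38% of Chromosome 14. The median over 19 autosomes was 5.38%. The densest windows of 10 Mb were at 60 to 70 Mb of Chromosome 16 (36.1% in AC-thymus regions), 100 to 110 Mb of Chromosome 1 (32.3%), 100 to 110 Mb of Chromosome 6 (26.0%) and 10 to 20 Mb of Chromosome 15 (25.3%), while 50 of 247 windows held none. Along the arms, 3.91% of the regions' sequence fell in the last 10 Mb of a chromosome, where 11.05% of all ESC non-PAD sequence and 7.87% of all autosomal sequence lay. In the first 10 Mb, next to the centromere, it was 8.50% of the regions' sequence, against 5.27% of ESC non-PAD sequence and 7.87% of all.

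**Figure D1:**
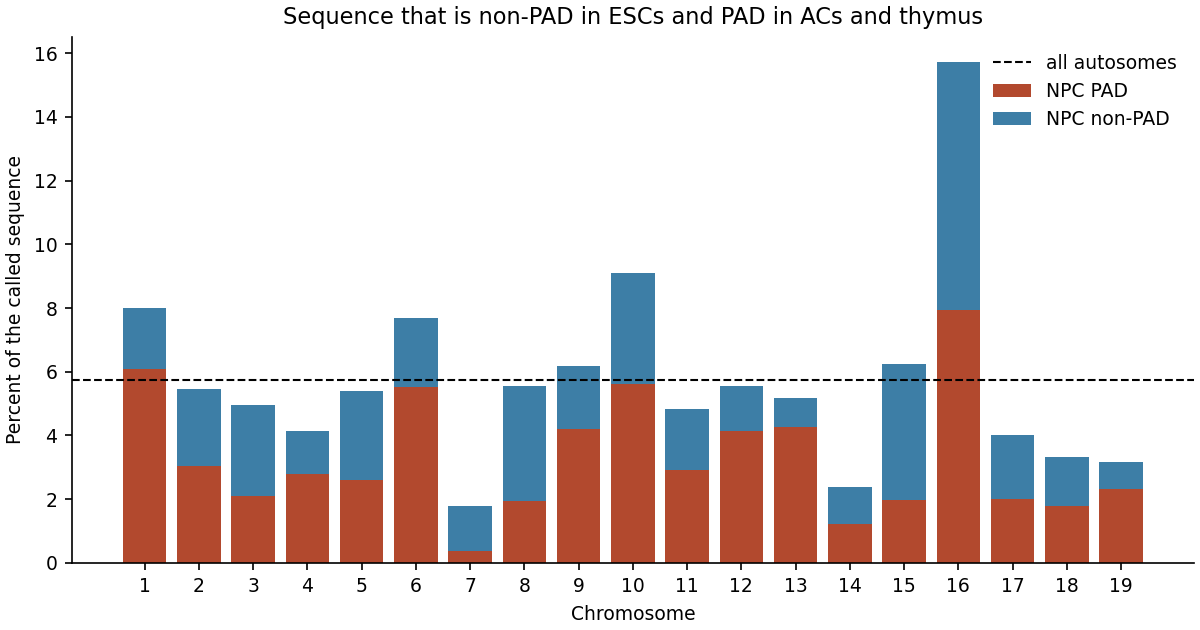
Percent of the called sequence of each autosome (x axis, chromosomes 1 to 19) that was non-PAD in ESCs and PAD in ACs and thymus, split by the NPC call, with the share over all autosomes (5.74%) as a dashed line. Chromosome 16 stands highest at 15.7% and Chromosome 7 lowest at 1.79%.

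The NPC call, the one call the rule left out, was PAD in some regions and non-PAD in others. NPCs were PAD at 14348 of 24341 member ends (58.9%), which lies between the 52.3% of all ESC non-PAD ends and the 70.3% of all autosomal ends. Counted in bp the share was 58.6%. Of the 698 regions, 361 were PAD in NPCs throughout (60.3 Mb, median 117 kb), 213 were non-PAD throughout (32.98 Mb, median 85.8 kb) and 124 were mixed (45.3 Mb, median 301 kb). In 100 of the mixed regions the NPC call changed once, in 17 it changed 2 times and in 7 more often. The mixed regions were the larger ones, and the 29 of them over 500 kb held 51.3% of the mixed sequence.

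**Figure D2:**
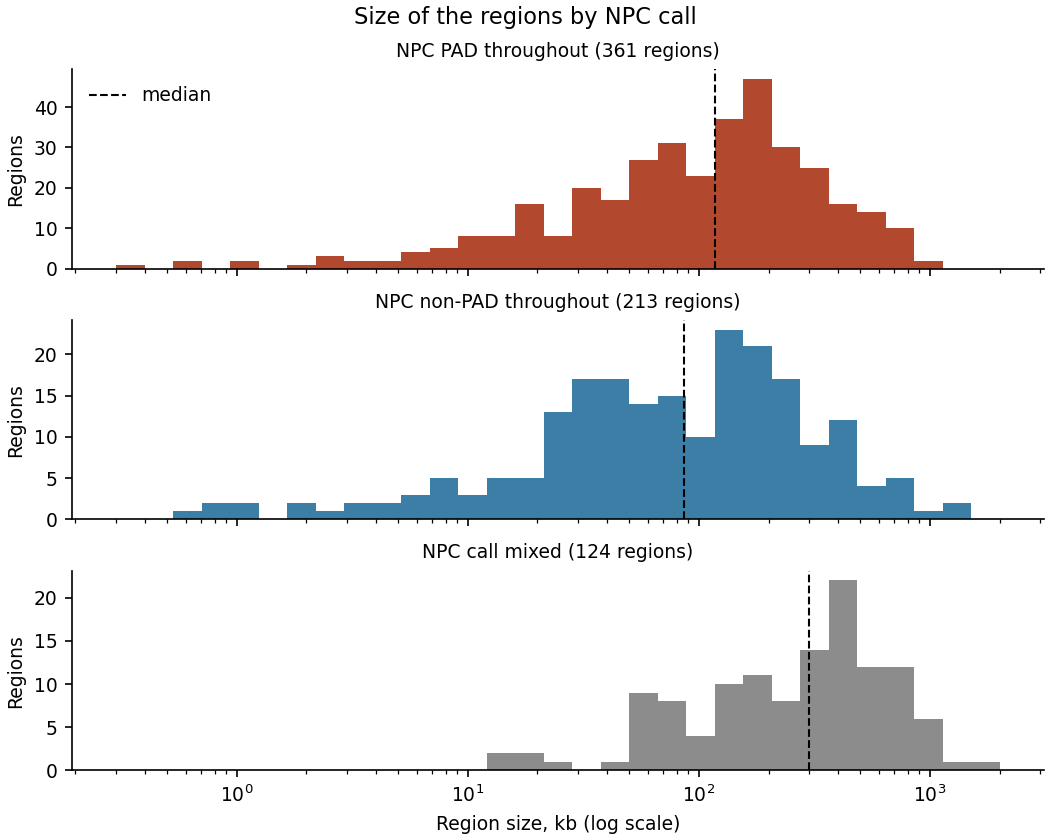
Number of AC-thymus regions (y axis) by size in kb (x axis, log scale), in panels for regions PAD throughout in NPCs (361), non-PAD throughout (213) and mixed (124), with the median of each as a dashed line. The medians are 117 kb, 85.8 kb and 301 kb, and the mixed regions include none under 10 kb.

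The NPC call was compared across the borders of the regions. At 1392 borders where 1 other call changed, the NPC call was the same on both sides in 99.0%, PAD on both sides at 842 and non-PAD on both sides at 536, and it changed at 14 (1.01%, 7 in each direction). Between neighbouring ends inside the regions the NPC call changed at 157 of 23643 places (0.664%), against 0.558% over all autosomal neighbours. The NPC call on the inner side was PAD at 43.9% of borders where the AC call changed, at 66.2% of those where the ESC call changed and at 78.0% of those where the thymus call changed.

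Beside the other classes of ends that were non-PAD in ESCs, the NPC share of the AC-thymus regions was intermediate. Ends that were PAD in ACs but not in thymus were PAD in NPCs at 84.9%, ends PAD in thymus but not in ACs at 26.9%, and ends PAD in neither at 53.8%. Ends that were PAD in ESCs, ACs and thymus were PAD in NPCs at 86.8%. The AC-thymus share was higher than the thymus-only share on 19 of 19 autosomes and lower than the AC-only share on 17 of 19. Against the ends that were non-PAD in all 3 it was higher on 10 autosomes and lower on 9, so no direction was shared there. Within the AC-thymus regions the share ran from 26.8% on Chromosome 7 to 85.6% on Chromosome 13, with a median over autosomes of 57.5%. It was 60.4% in regions with ESC PADs on both sides, 61.0% with an ESC PAD on 1 side and 50.4% with none. Chromosomes and neighbouring ends are not replicates, and these shares are descriptions of 1 set of calls.

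**Figure D3:**
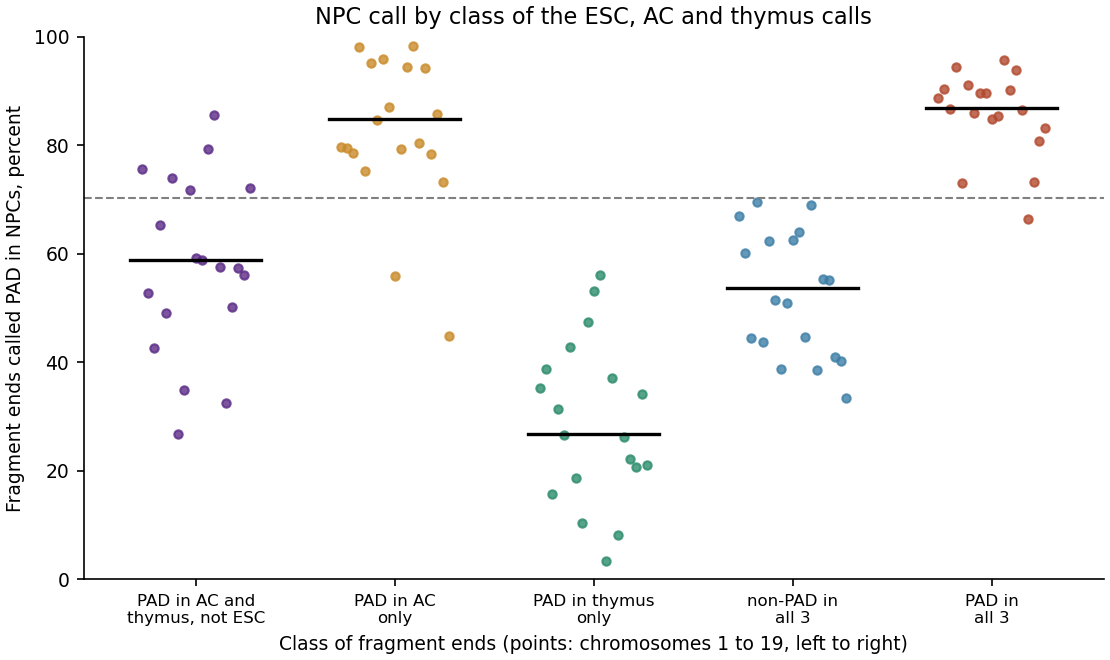
Percent of fragment ends called PAD in NPCs (y axis) in 5 classes of the ESC, AC and thymus calls, each point 1 autosome, black lines the share over all ends of a class and the dashed line that of all autosomal ends (70.3%). The AC-thymus class (58.9%) lies between the AC-only (84.9%) and the thymus-only class (26.9%).

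In gene density and GC content the AC-thymus regions lay below ESC non-PAD sequence as a whole, as did sequence PAD in thymus only, sequence PAD in ACs only and the PADs common to ESCs, ACs and thymus. They held 3.14 protein-coding genes per Mb, against 4.87 in sequence PAD in all 3, 10.0 in all ESC non-PAD sequence, 13.1 in sequence non-PAD in all 3 and 8.86 over the autosomes. Sequence PAD in ACs only held 8.23 and sequence PAD in thymus only 4.32. Gene density in the regions was below that of the remaining ESC non-PAD sequence on 18 of 19 autosomes, the exception being Chromosome 7, where it was 17.2 per Mb through receptor gene clusters described below. GC content was 38.7%, against 39.0% in PADs of all 3, 40.3% in sequence PAD in thymus only, 42.6% in sequence PAD in ACs only, 43.3% in all ESC non-PAD sequence and 45.1% in sequence non-PAD in all 3. It was lower than in the remaining ESC non-PAD sequence on all 19 autosomes (median difference -4.99 percentage points) and lower than in PADs of all 3 on 12 of 19 (median difference -0.35 percentage points). The ratio of observed to expected CG dinucleotides was 0.158 in the regions, 0.162 in PADs of all 3, 0.168 in sequence PAD in thymus only, 0.193 in sequence PAD in ACs only and 0.219 in sequence non-PAD in all 3.

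**Figure D4:**
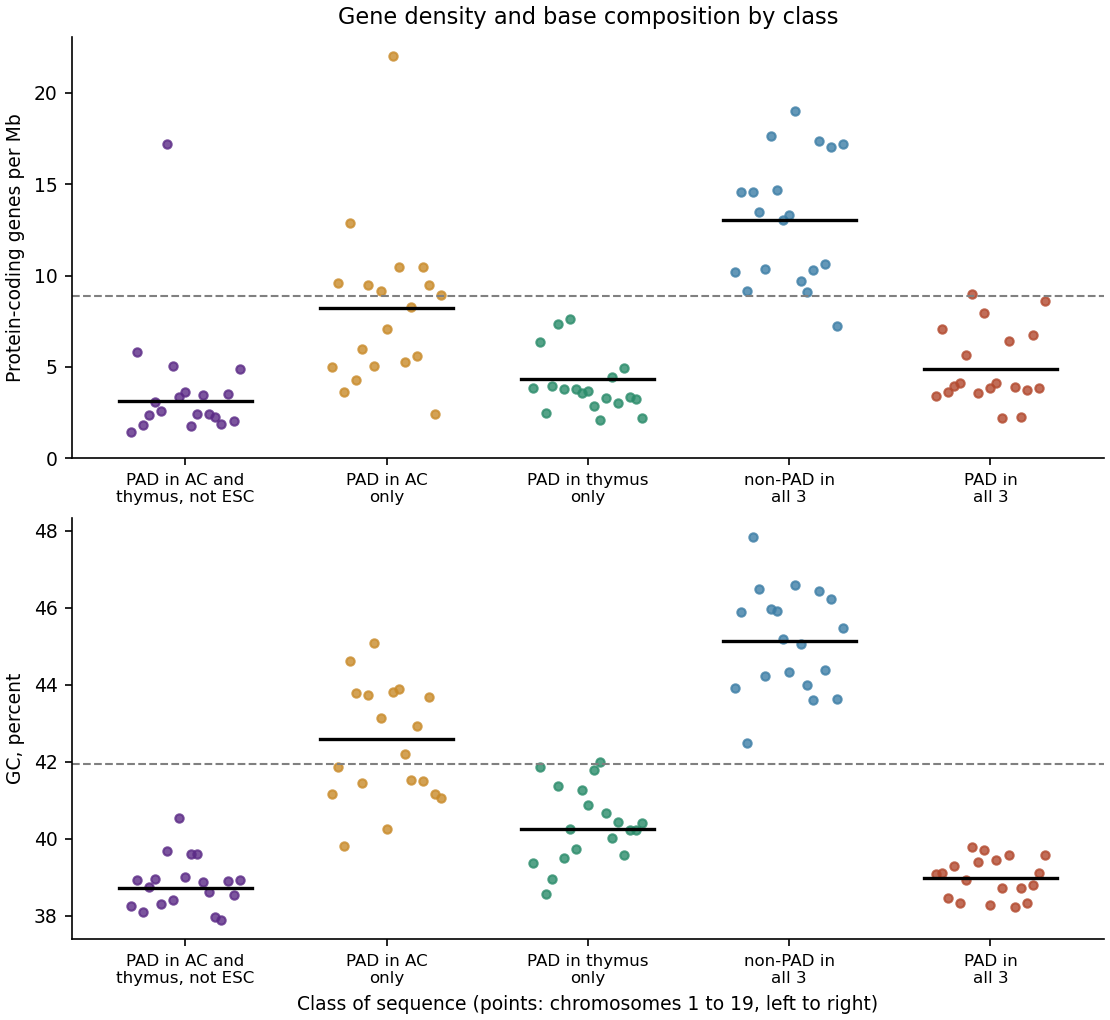
Protein-coding genes per Mb (upper panel, from 0) and GC content in percent (lower panel) in 5 classes of sequence, each point 1 autosome, black lines the value over the class and dashed lines the value over all autosomes (8.86 genes per Mb, 41.9% GC). The AC-thymus class is at 3.14 genes per Mb and 38.7% GC, and its high point for genes is Chromosome 7 (17.2).

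Fragment ends were slightly denser in the regions, 176 per Mb against 147 in all ESC non-PAD sequence and 172 in PADs of all 3, and MfeI sites stood at 22.5, 17.0 and 23.1 per 100 kb. Density of ends and base composition thus moved with the class of calls, and their part in the calls was not tested. The NPC PAD and NPC non-PAD stretches of the regions differed little in these measures. Pooled over the autosomes they held 3.16 and 3.11 genes per Mb, had a GC content of 39.0% and 38.3% and carried 177 and 174 ends per Mb. Single chromosomes weighed on both pooled densities. Chromosome 7 held 45 of the 178 genes of the NPC non-PAD stretches (21.0 per Mb). Chromosome 2 held 54 of the 257 genes of the NPC PAD stretches (9.92 per Mb). The median over autosomes was 2.44 genes per Mb in the NPC PAD and 2.03 in the NPC non-PAD stretches. Their genes differed more, with a median length of 11.1 and 2.43 kb and a median of 5 and 3 CG in the promoter. Clusters of small genes weigh on these medians. Of the NPC non-PAD genes, 29 lay in 1 region of Chromosome 7 and 24 in 1 region of Chromosome 8. Of the NPC PAD genes, 17 lay in 1 region of Chromosome 2. The medians without clusters were not computed.

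Most AC-thymus regions held no protein-coding gene by midpoint. By the midpoint of the longest transcript, 435 of 21397 autosomal protein-coding genes (2.03%) lay in them, and 525 of 698 regions (75.2%), with 85.0 Mb, had none. A further 101 regions held 1 gene, and 22 regions with 5 or more held 205 of the 435. Of the genes, 347 lay entirely inside a region, and 580 touched one. Gene bodies took 26.1% of the regions' sequence, against 25.5% in PADs of all 3 and 38.8% over the autosomes. The median gene was 6.92 kb long, against 15.4 kb for all placed genes, while 23 genes (5.29%, against 0.846% of all genes) were 500 kb or longer. Small clustered genes and very long genes thus stood side by side. NPCs were PAD at the midpoint of 257 of the 435 genes (59.1%) and non-PAD at 178.

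The CG dinucleotides of the promoters were counted. In the 300 bases from 250 before to 50 after the start of the longest transcript (NCBIM37), genes with their start in a region had a median of 4 CG (n = 435), against 12 in all autosomal genes, 16 where all 3 were non-PAD, 12 where only ACs were PAD, 6 where only thymus was PAD and 4 where all 3 were PAD. The letters CG read the same on both strands. Promoters with 10 or more CG made up 36.3% in the regions and 55.9% of all, and 55 of 435 and 1033 of 21397 had none. Without olfactory and vomeronasal receptor genes the medians were 8 and 14. Promoters of 3 listed genes that start inside a region are shown with each CG in capitals, as examples with few and with many CG. *Cntnap5b*, with 14 CG, is not shown. Their starts are those of RefSeq, which for *Robo2* and *Cntn6* differ from the start of the longest transcript used above. The CG counts given with them are thus not values of that distribution. The sequences are RefSeq's (GRCm38.p6), 5′ to 3′ on the gene's strand, and were found unchanged in NCBIM37 at the positions given. *Ptprc* (ENSMUSG00000026395.8), which encodes the leukocyte phosphatase CD45, had 4 CG (chr1:140071833-140072132, minus strand) in a region that was PAD in NPCs.
Ptprc promoter: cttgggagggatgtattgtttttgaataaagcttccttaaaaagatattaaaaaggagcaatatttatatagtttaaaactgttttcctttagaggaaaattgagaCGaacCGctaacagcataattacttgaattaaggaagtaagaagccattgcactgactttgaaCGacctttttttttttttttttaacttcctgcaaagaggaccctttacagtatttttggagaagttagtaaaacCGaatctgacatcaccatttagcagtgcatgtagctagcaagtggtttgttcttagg
*Cntn6*, a contactin of axons, had 4 CG (chr6:104442788-104443087, plus strand) in a region of mixed NPC calls.
Cntn6 promoter: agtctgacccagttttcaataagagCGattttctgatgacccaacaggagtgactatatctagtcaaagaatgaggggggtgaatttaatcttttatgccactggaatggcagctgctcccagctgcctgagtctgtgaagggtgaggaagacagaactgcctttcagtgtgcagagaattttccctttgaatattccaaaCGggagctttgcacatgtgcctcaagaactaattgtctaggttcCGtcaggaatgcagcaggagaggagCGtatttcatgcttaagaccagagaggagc
*Robo2*, a receptor for the axon guidance protein Slit, had 17 CG (chr16:74412021-74412320, minus strand) in a region that was non-PAD in NPCs.
Robo2 promoter: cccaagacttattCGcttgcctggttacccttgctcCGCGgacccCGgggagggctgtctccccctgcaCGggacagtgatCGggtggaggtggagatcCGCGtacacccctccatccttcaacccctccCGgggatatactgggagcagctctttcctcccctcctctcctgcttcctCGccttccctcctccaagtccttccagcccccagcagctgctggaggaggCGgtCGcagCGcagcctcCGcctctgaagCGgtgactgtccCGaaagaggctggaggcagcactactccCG
The ESC, AC and thymus calls of these promoters follow from the choice of genes that start inside a region.

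The largest AC-thymus region was chr15:17449798-19202800 (1753 kb, 311 ends), a whole ESC non-PAD between 2 ESC PADs. Its only protein-coding gene was *Cdh10* (ENSMUSG00000022321.8, cadherin 10, a cell adhesion protein of the nervous system). In NPCs 14 of its 311 ends were PAD, all at one edge, so that the NPC non-PAD call covered 1703 kb of it without a break. The thymus PAD around it measured 12423 kb and the AC PAD 3158 kb.

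The second, chr2:41380234-42864196 (1484 kb), was also a whole ESC non-PAD and held most of *Lrp1b* (ENSMUSG00000049252.10), a large endocytic receptor of the LDL receptor family. Of its 278 ends 18 were PAD in NPCs. The third, chr15:42269295-43582771 (1313 kb, 258 ends), was non-PAD in NPCs throughout, and no longer region was so. Its 5 genes were *Angpt1* (a ligand of the endothelial receptor Tie2), *Rspo2* (a secreted enhancer of Wnt signalling), *Eif3e* (a subunit of a translation initiation factor), *Gm10373* and *Ttc35*.

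The fourth largest region, chr12:115586116-116790629 (1205 kb, 122 ends), held no gene of the protein-coding type. It contained 50 variable segments of the immunoglobulin heavy chain, from *Ighv12-3* to *Gm16865*, which are joined by recombination in B cells. It was non-PAD in ESCs and NPCs and PAD in ACs and thymus, a tissue made up mainly of T cell precursors. Over all autosomes 51 of 355 genes annotated as immunoglobulin variable genes (14.4%) lay in AC-thymus regions, against 2.03% of protein-coding genes. Of these 51 genes, 50 lay in the Chromosome 12 region, so the share rests mainly on this locus. The remaining gene lay in a region of 15.2 kb on Chromosome 6. The annotated type was taken as given, and its members were not checked. The density of 101 ends per Mb in the Chromosome 12 region was below the lower quartile of the regions (148), so that the calls there rest on fewer ends.

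The fifth, chr5:4615628-5704581 (1089 kb), lay within an ESC non-PAD of 2279 kb and formed an AC PAD of its own. It held 8 genes, among them the Wnt receptor gene *Fzd1*, the kinase gene *Cdk14*, the tight junction gene *Cldn12* and the metalloreductase gene *Steap2*, along with *1700015F17Rik*, *Gtpbp10*, *Gm8773* and *A330021E22Rik*. In NPCs 123 of its 209 ends were PAD. Regions 6 to 9 in size, at chr9:33521944-34506534 (985 kb), chr4:75567806-76502134 (934 kb), chr16:6001721-6891546 (890 kb) and chr11:55910599-56797253 (887 kb), held no protein-coding gene by midpoint. NPCs were PAD at 76.3%, 8.79%, 0% and 68.4% of their ends. A gene with its midpoint elsewhere can still cross such a region, as *Ptprd* did on Chromosome 4. The tenth, chr1:69540627-70426106 (885 kb), was PAD in NPCs throughout and held *Ikzf2*, which encodes the lymphocyte transcription factor Helios, and *Spag16*, a gene of the sperm flagellum.

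Of the 5 largest regions that were non-PAD in NPCs throughout, 2 lie outside these 10, at chr16:46869565-47711721 (842 kb) and chr5:40729459-41515773 (786 kb), and held no protein-coding gene by midpoint. In these regions ESCs and NPCs shared the non-PAD call and ACs and thymus the PAD call. The reverse end of the range, regions PAD in NPCs throughout, was led after *Ikzf2* and *Spag16* by chr16:81273101-82151967 (879 kb) with *Ncam2*, a neural cell adhesion gene, then by chr6:131628079-132432800 (805 kb) with 4 bitter taste receptor genes (*Tas2r104*, *Tas2r105*, *Tas2r106* and *Tas2r114*) and the salivary protein gene *Prb1*.

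**Figure D5:**
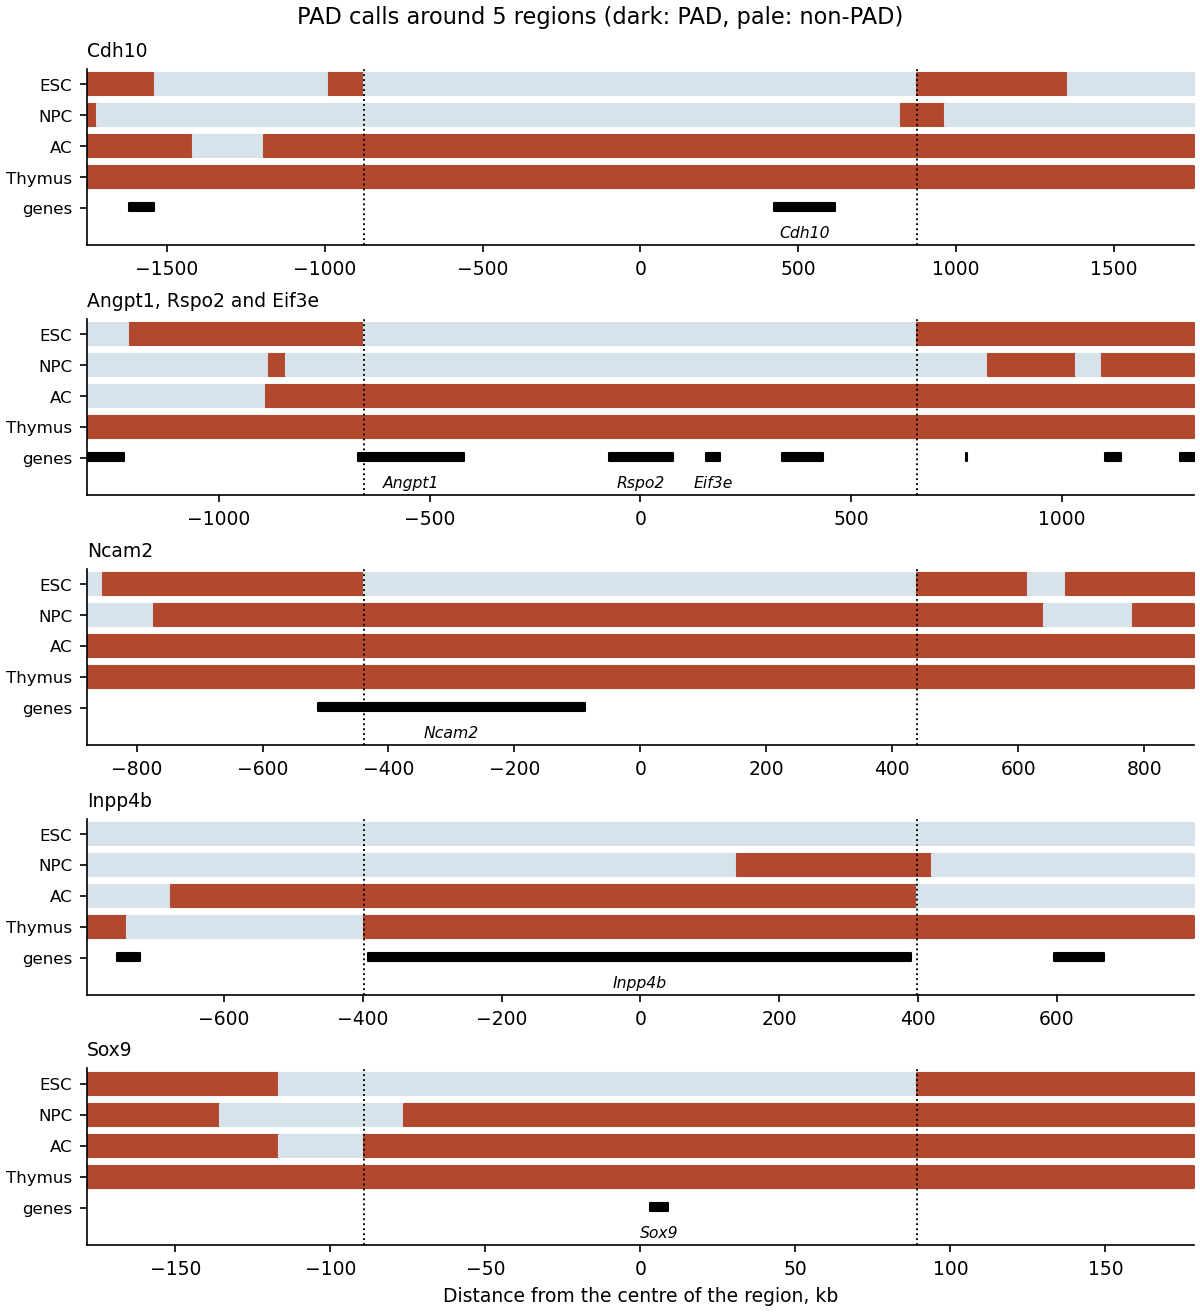
PAD calls (dark) and non-PAD calls (pale) of the 4 cell types and protein-coding genes (black) around 5 AC-thymus regions, with dotted lines at the region borders and distance from the region centre in kb on the x axis. The regions of Cdh10 (1753 kb), Angpt1 (1313 kb) and Ncam2 (879 kb) lie between ESC PADs, that of Inpp4b (798 kb) lies inside an ESC non-PAD, and NPCs are PAD across Ncam2 but not across Cdh10 or Angpt1.

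Very long genes were more frequent in the regions than genes at large. Of 181 autosomal genes of 500 kb or more, 23 (12.7%) had their midpoint in a region, against 2.03% of all genes. The regions are poor in genes and took 5.74% of the autosomal sequence, to which 12.7% lies nearer. Long genes were not counted in the other classes, so the share is not shown to be particular to these regions. A long gene is also placed by 1 point and can reach far beyond it. *Lrp1b* (2058 kb) had 61.6% of its length in AC-thymus regions, *Pcdh15* (1086 kb, a cadherin of hair cells) 74.99%, *Cntnap5b* (713 kb) 90.6% and *Robo2* (519 kb) 74.5%. The whole of *Inpp4b* (782 kb, an inositol phosphatase) and *Cdk14* (577 kb) was covered. At the other extreme, *Dlg2* (1943 kb, a postsynaptic scaffold) had 3.64% of its length in the regions and *5033411D12Rik* 14.2%.

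The remaining genes among the 20 longest were covered in part. *Nrxn3*, a presynaptic neurexin, was covered over 27.3% of 1610 kb, *Agbl4* over 48.9% of 1267 kb, *Kcnip4*, a potassium channel partner, over 20.4% of 1134 kb, and *Dab1*, an adaptor of reelin signalling, over 23.3% of 1061 kb. *Ntm* and *Lsamp*, adhesion proteins of the same family, were covered over 55.9% and 53.9%, *Dpp10*, a potassium channel partner, over 69.8%, *Spag16* over 62.5%, *Mgat4c* over 55.8%, *Fstl5* over 51.0%, *A830018L16Rik* over 18.9%, *Foxp2*, a forkhead factor of the brain, over 40.9% and *Ptprk*, a receptor phosphatase, over 85.7%. These genes thus ran through calls of both kinds in at least 1 cell type, and a single call does not hold for their whole length. At the midpoint NPCs were non-PAD in *Lrp1b*, *Inpp4b*, *Lsamp*, *Fstl5*, *Cdk14* and *A830018L16Rik* and PAD in the other 14.

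Lists of genes were compared with the 2.03% of all protein-coding genes that lay in the regions. Of 82 placed genes for synaptic and axonal adhesion and guidance, 9 (10.98%) lay in a region and 26 touched one. The 9 genes were *Cntn6*, *Cntnap5b*, *Dlg2*, *Lrp1b*, *Lsamp*, *Ncam2*, *Nrxn3*, *Ntm* and *Robo2*. The list holds many of the longest genes of the genome, and the lists were written with earlier results of these calls known, so the count is a description.

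Of the genes known for the cell types studied, 3 lay in the regions. Of 18 astrocyte genes, 1 (5.56%), *Sox9* (ENSMUSG00000000567.4), which encodes a transcription factor of glia and cartilage, lay in a region, and of 27 T cell genes 2 (7.41%), *Ptprc* and *Themis*, a gene of thymocyte selection, did, against 2.03% of all genes. Counts this small do not set these lists apart. *Sox9* lay in chr11:112551037-112729533 (178 kb, 41 ends) and NPCs were PAD at 37 of the 41 ends, so that at *Sox9* ESCs stood alone with a non-PAD call. This region had a GC content of 46.4%, above the 38.7% of the AC-thymus regions together. *Ptprc* lay in a non-PAD of ESCs of 71.4 kb, chr1:140003301-140074715, with 61.0% of its length, and *Themis* with 23.7 of its 215 kb in a region of 4 ends, chr10:28479907-28503611. Both were PAD in NPCs. None of 19 neural precursor genes, 22 pluripotency genes and 18 housekeeping genes lay in or touched a region, where lists of this size hold few genes at that share.

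Beside *Ptprc*, at lower coordinates, a region of 172 kb at chr1:139768327-139940194 (43 ends, all PAD in NPCs) held the genes of 2 microRNAs, *Mir181a-1* and *Mir181b-1*, known for their role in thymocyte signalling. They were picked out after their position was seen. Of 1468 placed microRNA genes, 35 (2.38%) lay in a region. The mature sequences (RefSeq, GRCm38.p6) are given with the seed, bases 2 to 8, in capitals.
miR-181a-5p: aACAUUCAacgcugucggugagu
miR-181b-5p: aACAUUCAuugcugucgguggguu
The seeds are identical, so the pair counts as 1 seed family at 1 locus.

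Clusters of related genes made up much of the gene content. Of 1081 olfactory receptor genes, 75 (6.94%) lay in a region, among them *Olfr1157*, *Olfr613*, *Olfr67* and *Olfr69*, and of 318 vomeronasal receptor genes 13 (4.09%) did. The regions held 2.03% of all protein-coding genes and took 5.74% of the autosomal sequence. Receptor genes were not counted in the other classes, so these shares are not shown to be particular to the regions. The largest cluster lay at chr7:110533588-110983358 (450 kb, 66 ends), where 25 of 29 genes were olfactory receptor genes, from *Olfr605* to *Olfr67*. The same region, non-PAD in ESCs and NPCs, held the adult beta globin genes *Hbb-b1* and *Hbb-b2*, which were named after their position was seen.

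On Chromosome 2 the regions at 36858936 to 37379791, 87473109 to 87606555 and 87661837 to 87968346 held 7, 9 and 17 olfactory receptor genes, and on Chromosome 19 the region at 13825806 to 14236020 held 9. All 4 were PAD in NPCs throughout. The olfactory receptor clusters thus split by chromosome, with the NPC PAD call on Chromosomes 2 and 19 and the non-PAD call on Chromosome 7. The vomeronasal genes *Vmn1r170* to *Vmn1r175* filled chr7:24376838-24601763 (225 kb), which was also non-PAD in NPCs.

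The defensin cluster at chr8:22119196-22797517 (678 kb) held 24 genes, 11 of them with symbols of alpha defensins, antimicrobial peptides of the gut, from *Defa21* to *Defa17*. It was a whole ESC non-PAD inside an AC PAD of 4488 kb and was non-PAD in NPCs. It rested on 19 ends, or 28.0 per Mb, the sparsest of the regions named here. Over all defensin genes, 12 of 51 (23.5%) lay in a region. Other families gave 4 of 62 cadherins and protocadherins (*Pcdh15*, *Pcdh7*, *Cdh8* and *Cdh10*) and 2 of 59 Wnt, Fgf, Bmp and Gdf ligands (*Fgf12* and *Bmp3*). Potassium channel subunits gave 1 of 91 (*Kcnip4*). A list of transcription factors set by symbol, such as Sox, Pax, Fox and Tbx, gave 3 of 131 (*Foxp2*, *Sox30* and *Sox9*). Factors with symbols outside this list were not counted, and *Twist1*, *Ferd3l*, *Hey2*, *Mef2c* and *Rfx6* are among those that also lay in a region.

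Of the remaining families, 4 had between 1 and 4 members in the regions. Zinc finger genes with Zfp symbols gave 4 of 333 (1.20%, *Zfp180*, *Zfp944*, *Zfp758* and *Zfp654*), solute carriers 3 of 333 (0.901%, *Slc35f1*, *Slc9a2* and *Slc10a4*), Adam and Adamts proteases 1 of 51 (1.96%, *Adamts18*) and serpins 1 of 59 (1.69%, *Serpini1*). None of 95 cytochrome P450 genes, 90 chemokine and interleukin genes, 75 ribosomal protein genes, 67 clustered histone genes, 46 keratin genes, 39 Hox genes and 34 voltage-gated sodium and calcium channel genes lay in a region. At the overall share of 2.03% a list of such a size holds few genes, so an empty list says little on its own.

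Among genes of other types, 202 of 1458 snoRNA genes (13.9%) lay in the regions, and a single region accounted for most of them. At chr7:66479657-66906060 (426 kb, 23 ends) lay all 137 annotated copies of *SNORD115*, brain snoRNAs of the imprinted locus that corresponds to the human Prader-Willi and Angelman region, together with *Ube3a*, a ubiquitin ligase gene of the same locus. Only 5 of its 23 ends were PAD in NPCs, and its density of 53.9 ends per Mb was low. Without these copies 65 of 1321 snoRNA genes (4.92%) lay in a region. Pseudogenes (143 of 4045, 3.54%) and lincRNA genes (23 of 1231, 1.87%) lay closer to the share of protein-coding genes. The snoRNA locus was singled out after its values were seen.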

How the data were processed

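Sat4C calls of 4 cell types were analysed. The authors mapped reads to 4C fragment ends of mm9 (aligner not given in the sources used here), sorted the coverage of each end into classes, fitted a 2-state hidden semi-Markov model per replicate (mhsmm, R) and voted over replicates, pooling their reads where the vote was tied. The deposited values, a category in place of a count or score, are the words PAD and nPAD for 399232 ends, with 0 columns per replicate and no read depth, so no replicate could be left out and counting error is unknown. No per-sample column was left unused.

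Regions and genes (GENCODE vM1, midpoint of the longest transcript) were computed with pandas 2.3.3, numpy 2.4.6 and pysam 0.24.0, intervals with scipy 1.17.1 and figures with matplotlib 3.10.9 (Python 3.11.15). The file's coordinates fit NCBIM37 (mm9), where MfeI sites start 49.9% of ends and NlaIII sites 47.9%. Region building was tested on simulated data, and all 58 planted regions were recovered. Fragment ends, regions and chromosomes are not replicates, so values are counts, medians and ranges with no test. Named are the 10 largest regions and their genes, the 5 largest regions non-PAD in NPCs, the 20 longest genes, regions with 5 or more genes of 1 family, listed genes in regions, and up to 4 examples per symbol family. The members and lists were chosen with earlier results of these data known. Results of 2 listed sets of genes are not reported here.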

Additional observations from a re-analysis of the deposited data

How the results depend on the processing

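The values were recomputed under 9 other settings, which gave 39 values. Of these 24 differed by less than the limit set (1.5 times for counts, otherwise a 95% interval from counting regions, ends or genes alone) and 15 differed by more. That interval takes ends and genes as independent, which they are not, since the NPC call changed at only 0.664% of places between neighbouring ends inside regions. The tally is thus a yardstick for the settings and no measure of error. The 2 limits also differ in width, as 580 genes by any overlap passed the limit for counts and their density did not pass its interval. Sequence covered (139 Mb) and GC content (38.7%) have no such interval, so every change counts. With borders at the outer member ends they were 134 Mb and 38.69%, without regions under 5 ends 137.1 Mb and 38.70%, with regions 2 or fewer other ends apart joined 138.7 Mb and 38.71%, with gaps over 100 kb left out 137.9 Mb and 38.70%, and without Chromosome 1, which holds the most member sequence, 123 Mb and 38.76%. The median size became 156 kb without regions under 5 ends. The NPC PAD share became 56.9% without Chromosome 1. Genes placed by any overlap gave 4.19 genes per Mb, and all gene types gave 1015 genes and 7.33 per Mb, since more genes enter. Genes placed by start site again numbered 435, of which 387 were shared with the placement by midpoint. No paired analysis was possible because the calls are 1 consensus per cell type and no test was made. The same limits hold throughout: depth and replicate error are unknown, and the NPC calls stand apart from those of thymus. Thymus also differs from the cultured cells in strain, origin and sequencer.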
